A study of Homo sapiens with 10 samples.

Results

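The replication-dependent histone genes supply the histone proteins that package newly copied DNA, and they were examined here in A549, a cell line long established from a human lung adenocarcinoma and used as a model of alveolar epithelium. Members were chosen by name and count: each row of the deposited table whose symbol starts with HIST1H, HIST2H, HIST3H or HIST4H and whose counts summed to at least 10 over the 10 libraries. Of 33551 rows, 71 carried such a symbol and 60 were members. The series holds RNA from 5 A549 lines: 1 with wild-type ABCA3 (WT), 1 labelled as its knockout (KO), and 1 each for the ABCA3 changes L101P, E292V and E690K. The ABCA3 protein moves surfactant lipids into the lamellar bodies of alveolar type 2 cells. Each line was sequenced untreated and after overnight transduction with VSVG LV-ABCA3:GFP, a lentiviral vector that carries ABCA3 joined to GFP (MOI, the ratio of vector to cells, 20). Each combination of line and treatment has 1 library, so a value of a single library has no replicate error. Whether an edited line is 1 clone, how many of its ABCA3 alleles carry the change and which promoter drives the vector are not given in the sources used here.

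Replication-dependent histone genes lie in clusters, have almost no introns and are transcribed mainly while DNA is copied. Their messenger RNAs usually end in a conserved stem-loop in place of a poly(A) tail. The stem-loop is bound by SLBP, and the U7 small nuclear ribonucleoprotein guides the cut that follows it. NPAT gathers the transcription machinery at the clusters. Some of these genes also give longer, polyadenylated transcripts, mainly in cells that have stopped dividing or are differentiating. Of the proteins, H2A, H2B, H3 and H4 form the nucleosome core and H1 binds the linker DNA between nucleosomes. Replication-independent histones such as H2AFZ and H3F3B are made from polyadenylated messages throughout the cell cycle.

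The stem-loop was located first, since it is the feature that sets this family of messages apart and is a property of the reference, not of the measurements. Transcripts of GENCODE release 29 on GRCh38 were searched on the sense strand for GGNNCTNNNNAGNNCC with 6-base arms that pair fully by Watson-Crick rules around a loop of 4 bases. The motif was found in an annotated transcript of 31 of the 60 members, against 135 of 19598 other protein-coding genes (0.689%). Of the 29 members without it, 25 have annotated exons under 700 bases in all, so no match says only that these letters are not in the annotated transcripts. The stem separated the classes. All 8 H4 members with a motif had the stem GGCCCT, and all 23 members of the other classes with a motif had GGCTCT. The 5 stem-loops below belong to the members that carry most counts or that passed a test, written as DNA with the 16 stem and loop bases in capitals and 6 flanking bases on each side.
HIST1H2AC: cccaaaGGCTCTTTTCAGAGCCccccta
HIST1H2BD: cccaaaGGCTCTTTTAAGAGCCacgcat
HIST2H2BE: tccaaaGGCTCTTTTCAGAGCCacccac
HIST2H2BF: cccaaaGGCTCTTTTCAGAGCCacttca
HIST1H4I: taaaaaGGCCCTTTTTAGGGCCcctaag
The annotated transcript ran on past the stem-loop by 1128 bases in HIST1H2AC, 39 in HIST1H2BD, 1729 in HIST2H2BE, 1479 in HIST2H2BF and 212 in HIST1H4I. Of the 31 members with a motif, 22 were annotated 100 bases or more past it and 9 by less.

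The start-site regions of the classes differ in sequence as well. Of the 60 members, 50 were matched through older symbols to RefSeq promoters of GRCh38.p14, taken as 250 bases before to 50 after the start. The motifs searched, on both strands, were the octamer ATTTGCAT, an element bound by POU factors, and the short elements CCAAT and TATAAA. The octamer was in 8 of 12 H2A and 8 of 12 H2B members, in 0 of 4 H1, 0 of 11 H3 and 0 of 11 H4 members, and in 2.12% of 27244 other genes. CCAAT was in 82% of the members against 39.6% of the other genes, with H4 the low class at 18.2%. TATAAA was in 70% of the members and 13.9% of the other genes. The 250 bases before the start of HIST1H2BK, the member with most counts, hold each of these motifs (GRCh38.p14, chr6:27146859-27147108, minus strand). Matches are in capitals, and near the 5′ end a pair of TATAAA matches on opposite strands overlap.
HIST1H2BK: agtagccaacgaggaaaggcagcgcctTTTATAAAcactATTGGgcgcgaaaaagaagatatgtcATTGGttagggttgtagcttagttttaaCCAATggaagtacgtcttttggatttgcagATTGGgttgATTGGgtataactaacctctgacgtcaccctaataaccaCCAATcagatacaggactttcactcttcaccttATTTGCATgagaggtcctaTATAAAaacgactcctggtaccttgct

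The shallowest and the deepest library were the untreated and the transduced L101P library, with 59430095 and 96811421 counts. Levels are given in CPM, the counts scaled by the library total. The epithelial keratins KRT8 and KRT18 averaged 5115 and 2176 CPM. Epithelial markers were not uniform over the lines. Of the 4 listed (EPCAM, KRT8, KRT18 and CDH1), 3 differed among the 5 lines at an adjusted p under 0.05 by edgeR, against 13% of all genes. Of 6 markers of other cell types, CD3E was at 0. PTPRC, PECAM1, COL3A1 and PDGFRB, markers of blood, endothelial and connective tissue cells, averaged 0.033, 0.041, 0.146 and 0.133 CPM. The sixth, the macrophage marker CD68, lay between 20.7 and 42.9 CPM with its highest value in the transduced L101P library. It rose in L101P against WT by 0.61 on the log2 scale (SE 0.14, adjusted p = 0.0366 by edgeR), and its part in the results below was not tested. The surfactant genes SFTPA1, SFTPA2, SFTPB, SFTPC and SFTPD of alveolar type 2 cells were at or under 0.31 CPM. In the KO pair the targeted gene went against the labels: ABCA3 was at 600.5 CPM in the library labelled KO untreated and 25.8 CPM in the library labelled KO transduced, against 361.9 and 610.5 CPM in the WT pair. Untreated and transduced, ABCA3 was at 1156 and 895.8 CPM in L101P, 991.6 and 1035 CPM in E292V, and 889.7 and 967.7 CPM in E690K. EGFP, counted in a row of its own, was at 37.9 CPM in the library labelled KO untreated and 0.049 CPM in its transduced partner. In the other pairs it was at 70.9 and 153 CPM (WT), 1.01 and 35.9 CPM (L101P), 20.7 and 66.8 CPM (E292V) and 16.3 and 18.0 CPM (E690K), so untreated libraries of several lines also held EGFP counts. Every vector direction rests on these labels.

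The histone members took a median of 0.0111% of the counts of a library, and a few genes held most of that. In bulk libraries fewer cells copying their DNA and less histone RNA per cell cannot be told apart. Their summed counts over the 10 libraries were 90212. HIST1H2BK, an H2B gene, held 18.7% of them, and the 10 most counted members held 75.0%. H2B was the largest class with 43.4% of the member counts in 17 genes, followed by H2A with 23.6% in 13, H4 with 14.5% in 13, H1 with 11.5% in 4 and H3 with 7.14% in 13. A mean of at least 1 CPM was reached by 19 members, and 41 were under it. In 12 members at least 1 library had no count.

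The class leaders were followed in every library. HIST1H2BK (ENSG00000197903.7, chromosome 6, 27146418 to 27146798, minus strand) had its lowest level, 18.4 CPM, in the transduced E292V library, a median of 20.7 CPM and its highest, 27.9 CPM, in the untreated WT library. HIST1H2AC, the leading H2A gene (ENSG00000180573.9, chromosome 6, 26124145 to 26139116, plus strand), lay between 14.4 and 19.8 CPM with a median of 16.2 CPM. HIST1H1C, which encodes linker histone H1.2 (chromosome 6, 26055787 to 26056428, minus strand), lay between 9.32 and 11.7 CPM around 10.1 CPM. These 3 genes thus varied by 1.51, 1.38 and 1.25 times from the lowest to the highest library. HIST1H4I led the H4 class (chromosome 6, 27138588 to 27139881, plus strand) with 6.99 to 10.9 CPM and a median of 8.50 CPM. HIST1H3E led the H3 class (chromosome 6, 26224199 to 26227473, plus strand) with 2.49 to 3.95 CPM and a median of 3.10 CPM. On the scale of mean CPM per kilobase of annotated exon, HIST1H2BK was at 55.2, HIST1H1C at 16.2, HIST1H2BD at 11.8, HIST1H2AC at 9.85, HIST1H4I at 6.74 and HIST1H3E at 1.17. The value of HIST1H2BK depends on an annotation of only 381 bases.

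**Figure D1:**
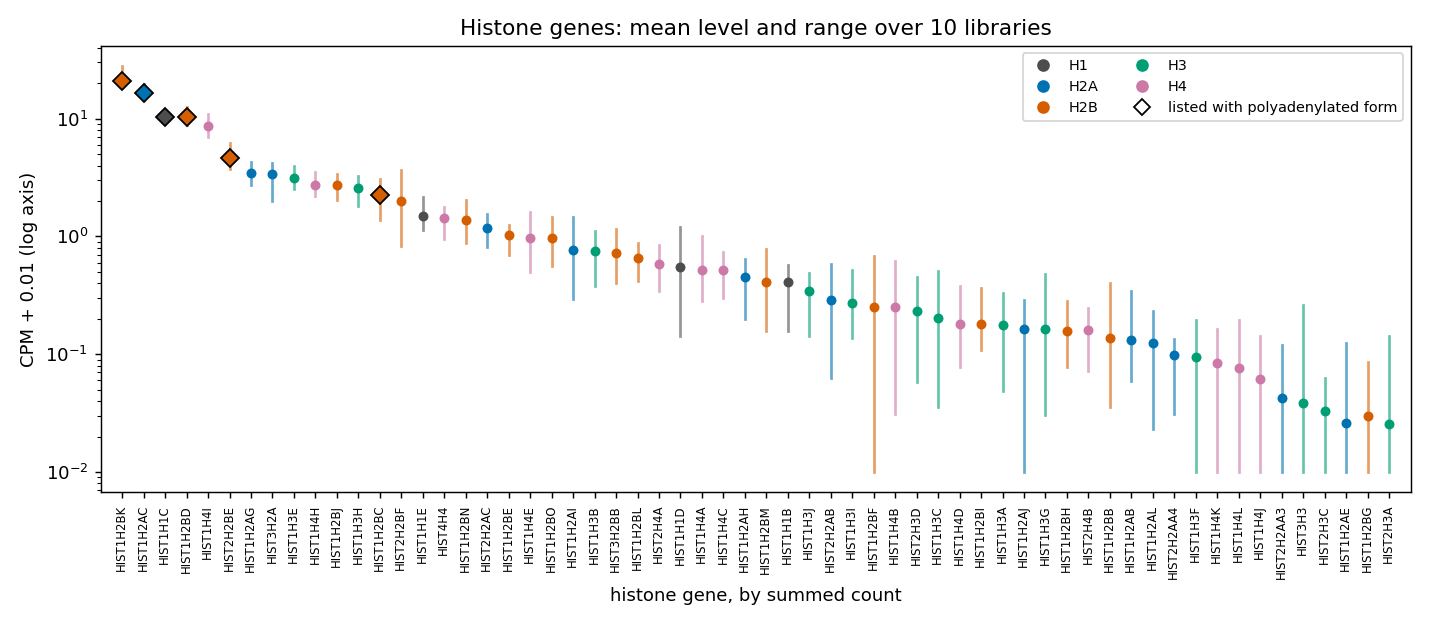
Mean level of each of the 60 histone genes in CPM + 0.01 on a log axis, with a line from the lowest to the highest of the 10 libraries. Genes are ordered by summed count and coloured by class, and diamonds mark the 6 genes listed with a reported polyadenylated form, 5 of which are among the 6 most counted. Levels are not divided by length.

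Members listed with a reported polyadenylated form held most of the member counts. The 6 genes (HIST1H1C, HIST1H2AC, HIST1H2BC, HIST1H2BD, HIST1H2BK and HIST2H2BE) were listed from general knowledge, with earlier results of these data known. The list held 57.9% of the member counts, a share that describes these counts and is not a test. Of the 6 most counted members, 5 were on it, the exception being HIST1H4I. HIST1H2BD lay between 8.83 and 12.6 CPM (chromosome 6, 26158146 to 26171349, plus strand), HIST2H2BE between 3.73 and 6.23 CPM (chromosome 1, 149884459 to 149886652, minus strand) and HIST1H2BC between 1.37 and 3.08 CPM (chromosome 6, 26114873 to 26123926, minus strand). The other 54 members together summed to 42.5 to 53.5 CPM per library. Members annotated 100 bases or more past the stem-loop held 47.0% of the member counts, those annotated by less held 10.9%, and those without a motif held 42.1%.

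Per length, the members lay far under the other genes of their biology. Their median over genes was 0.556 CPM per kilobase. The same median was 41.0 for 12 replication-independent histone genes, 15.5 for 43 S-phase genes, 31.5 for 54 G2 and mitosis genes, 10.8 for 20 genes of histone gene transcription and message processing, and 13.3 for 18 histone chaperone genes. Summed without regard to length, the 12 replication-independent histones reached 1895 to 2249 CPM per library. Per the labels the libraries were made with a kit for total RNA, and messages that end at the stem-loop lack poly(A). Of 26 other RNAs listed as lacking poly(A), 2 could be examined: RMRP, the RNA of an RNA-processing enzyme, at 8.49 to 14.9 CPM, and TERC, the telomerase RNA, at a mean of 0.15 CPM. The other 24 had no row under their listed names in the count table. What part of the counts came from transcripts with a tail was not tested, and the counts do not separate transcript ends.

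At the edge of the rule, HIST2H3A with 12 counts, HIST1H2BG with 14 and HIST1H2AE with 15 were the members just inside it, and HIST1H1T with 3, HIST1H2AM with 2 and HIST1H1A with 2 were just outside. A further 8 rows had 0 counts in every library. Of the 11 rows outside, 5 have 50% or more of their exonic bases in exons of other annotated genes, and 3 have 99% or more, while 0 of the 60 members reach 50%. Near-identical copies are a separate limit. In 12 members 50% or more of the 50-base words of their transcripts also occur in other genes, among them HIST2H4A and HIST2H4B, HIST2H2AA3 and HIST2H2AA4, and HIST2H3A and HIST2H3C. HIST1H2BK is one of the 12, with 74.1% of its words shared: 204 of 332 occur in the H2B gene H2BFS, which itself had 38 counts. How reads that fit several genes were counted is not given in the sources used here, so the levels of these 12 members are uncertain.

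H2A and H2B genes often stand back to back and share the sequence between their starts. In the annotation 11 such pairs had starts within 600 bases, and in 8 of them both genes were members, with 219 to 331 bases between starts. The levels within a pair were far apart in some pairs and closer in others. HIST1H2BK, whose upstream bases are printed above, was at 55.2 CPM per kilobase and HIST1H2AH, which starts 331 bases away, at 1.14. In the pair of HIST1H2AC and HIST1H2BC the H2A gene was the higher one, at 9.85 against 2.71 CPM per kilobase, and HIST3H2A stood at 3.76 against 0.299 for HIST3H2BB. HIST1H2AG and HIST1H2BJ, by contrast, were at 1.52 and 2.87 CPM per kilobase. HIST2H2AC and HIST2H2BE were at 3.01 and 2.11, and HIST1H2AI and HIST1H2BL at 1.519 and 1.325. Over the 8 pairs, H2B was higher per length in 3 and H2A in 5. The 5 include HIST1H2AE and HIST1H2BG, with only 15 and 14 counts in all. These orders rest on annotated lengths, and the strand used in counting is not given in the sources used here.

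**Figure D2:**
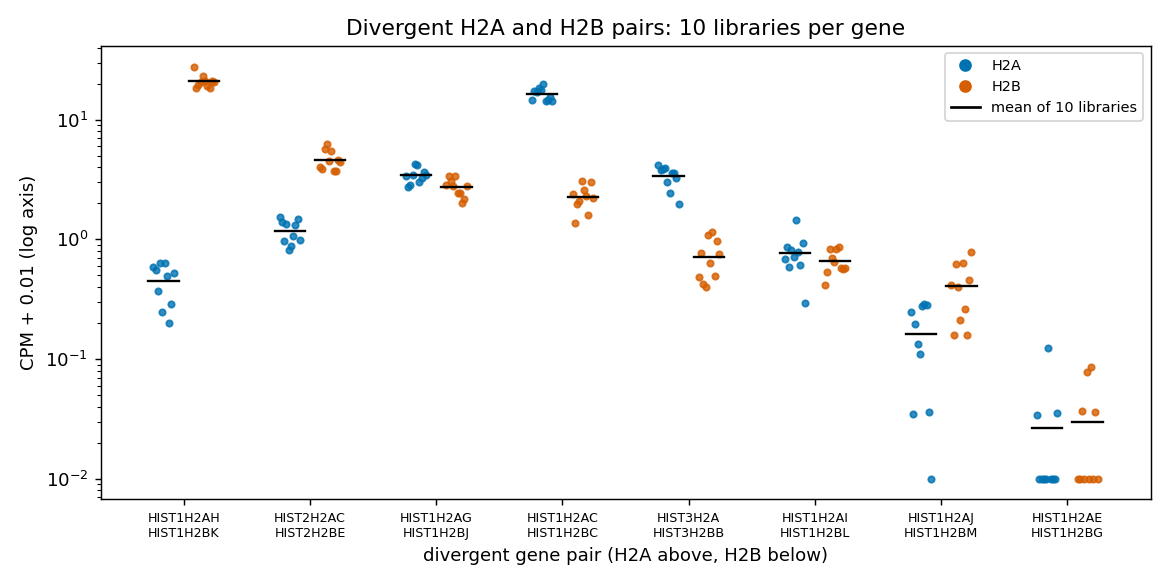
Level of each gene of the 8 back-to-back H2A and H2B pairs in CPM + 0.01 on a log axis, with 1 point for each of the 10 libraries and a bar at their mean. HIST1H2BK lies above HIST1H2AH in all 10 libraries and HIST1H2AC above HIST1H2BC in all 10. Levels are not divided by length.

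The summed histone level differed little among the libraries. It was 124.2 CPM in untreated and 107.7 in transduced WT cells, 115.0 and 115.3 in the libraries labelled KO untreated and KO transduced, and 115.3 and 124.1 in untreated and transduced L101P cells. The E292V libraries were at 106.3 and 101.9 CPM, and the E690K libraries at 107.4 and 103.1 CPM. The untreated WT and the transduced L101P library were the highest. By library totals, the 4 libraries of the E292V and E690K lines lay below the other 6. The counting-error interval of transduced WT (104.6 to 111 CPM) overlapped those of these 4 libraries. With the TMM scaling used in the tests, untreated E690K (108.7 CPM) lay above transduced WT (106.2 CPM). By library totals, the highest library was 1.22 times the lowest. The 95% Wilson interval of 1 library, on read pairs taken as counts divided by 2, was 120.8 to 127.6 CPM for untreated WT and 99.1 to 104.8 CPM for transduced E292V, and it covers counting error only. Untreated libraries averaged 113.7 ± 7.21 CPM (SD, n = 5) and transduced libraries 110.4 ± 9.25 CPM (SD, n = 5), so the treatment groups overlapped. The transduced library had 0.868 times the untreated level in WT. That ratio was 1.00 (the pair labelled KO), 1.08 (L101P), 0.958 (E292V) and 0.960 (E690K) in the other lines.

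**Figure D3:**
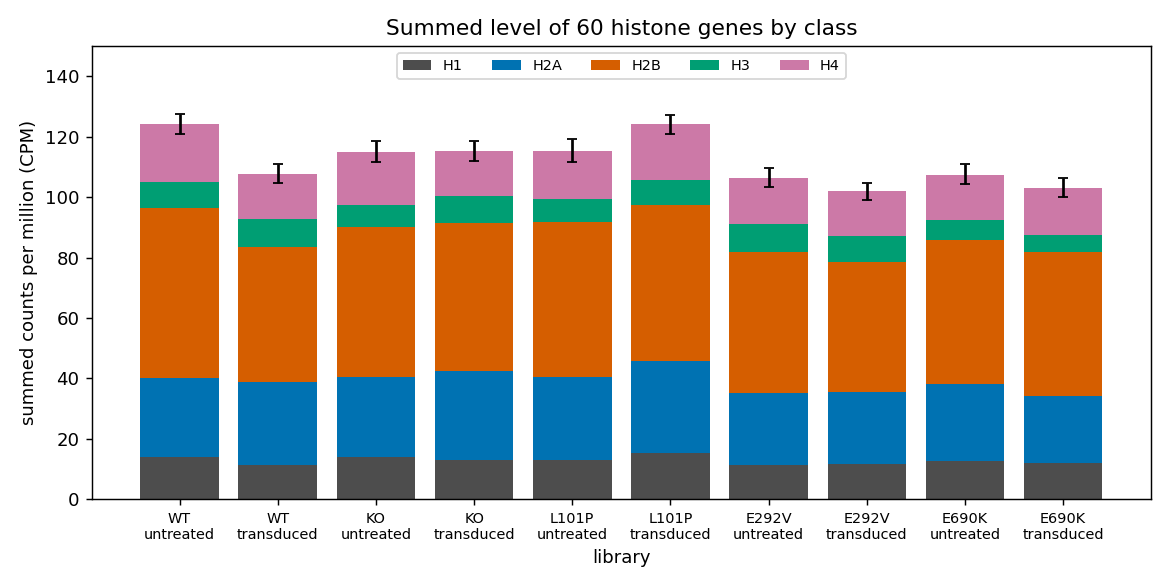
Summed level of the 60 histone genes in each library in CPM, stacked by class, with the 95% Wilson interval of the total for counting error. Totals run from 101.9 CPM in the transduced E292V library to 124.2 CPM in the untreated WT library, with H2B the largest class in each.

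No histone gene passed the test for an effect of transduction. The question was whether transduction moved the family, and the 5 lines served as replicates. By the labels, ABCA3 itself rose in the WT pair and moved little in E292V and E690K. It fell in L101P and in the pair labelled KO, so a response to the ABCA3 level was not tested. Of 60 members 53 had counts enough to be tested, and 0 of the 53 passed edgeR's quasi-likelihood test at a Benjamini-Hochberg adjusted p of 0.05, against 0% of the 17978 genes tested. DESeq2 also called 0 members, against 0.629% of all genes. At an unadjusted p of 0.05 edgeR gave 1 member, against 6.88% of all genes. That member was HIST1H4L, an H4 gene with 50 counts in all, named here because it was the single one. Its log2 fold change was -2.65 (SE 1.09, adjusted p = 0.642 by edgeR). The median log2 fold change of the 53 members was -0.04, with 21 above and 32 below 0, and that of all genes was 0.00.

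For each class leader the 95% interval of the vector effect included 0. The log2 fold change of HIST1H2BK was -0.12, with a 95% interval from -0.32 to 0.08. It was 0.11 for HIST1H2AC (-0.04 to 0.27), -0.05 for HIST1H1C (-0.26 to 0.16), -0.05 for HIST1H4I (-0.30 to 0.20) and 0.25 for HIST1H3E (-0.07 to 0.57). Many members were too thinly counted to bound a change. The 95% interval lay wholly within a 2-fold change for 27 of the 53 members (50.9%), against 75.7% of all genes, and all 7 untested members had 71 counts or fewer. Within lines, the transduced minus the untreated log2 level had a median over the 53 members of -0.16 (WT), -0.02 (the pair labelled KO), 0.28 (L101P), -0.09 (E292V) and -0.04 (E690K). In the L101P pair 33 members were higher and 19 lower after transduction, in the WT pair 20 and 33. Over all 17978 genes tested, 9127 were higher and 8704 lower in the L101P pair, and 9051 and 8847 in the WT pair. These single pairs have no replicate check. The transduced L101P library was the highest of the 10 for 14 of 60 members, and the transduced E292V and E690K libraries were the lowest for 12 and 11 members. The library labelled KO transduced was the highest for 10 members and untreated WT for 9, and transduced WT was the lowest for 9. Where several libraries had 0 counts, the first in order was taken as the lowest. Such ties gave transduced WT most of its members: HIST1H3F, HIST1H4K, HIST1H4L, HIST2H2AA3, HIST1H2AE and HIST2H3A. Matching counts over all genes are not given here.

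**Figure D4:**
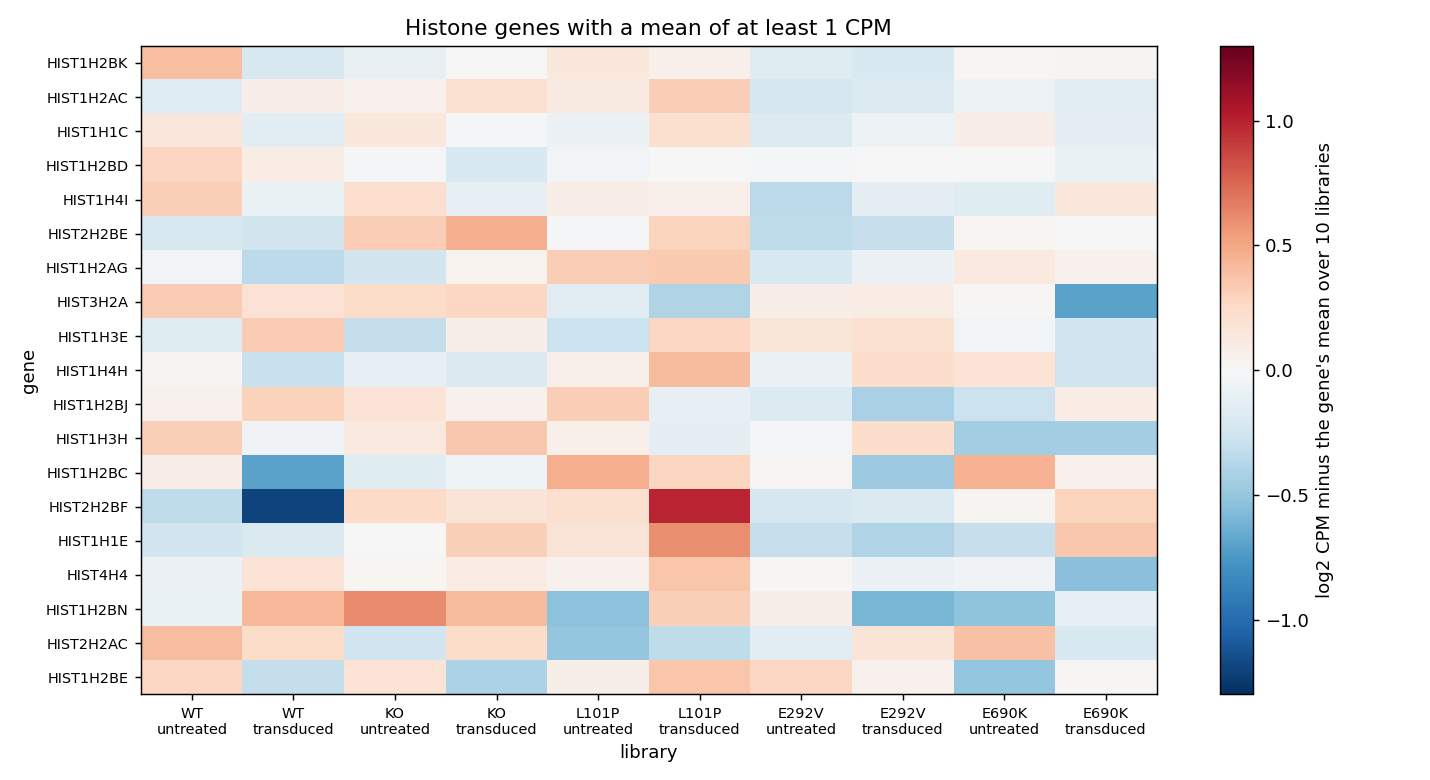
Deviation of each library from the gene's mean log2 CPM for the 19 histone genes that average 1 CPM or more, from most to least counted. Deviations run from -1.2 to 0.99, and 94.2% of the cells lie within 0.5 of the gene's mean. HIST2H2BF holds both extremes, low in the transduced WT and high in the transduced L101P library.

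Among the lines edgeR called 2 histone genes, each in 1 comparison. Here each line was compared with WT over both treatments, so the error comes from how far the 10 libraries depart from an additive model, and a call describes these lines. HIST2H2BF, an H2B gene of the chromosome 1 cluster (ENSG00000203814.6, chromosome 1, 149782689 to 149812373, minus strand), rose in the L101P line. It had 126 and 66 counts in untreated and transduced WT cells (1.51 and 0.812 CPM), and 129 and 352 in the L101P libraries (2.17 and 3.64 CPM). It was at 2.23 and 2.09 CPM in the libraries labelled KO, at 1.65 and 1.67 CPM in E292V and at 1.89 and 2.23 CPM in E690K. Transduced WT was thus the lowest library and transduced L101P the highest, and the other 8 lay between 1.51 and 2.23 CPM. The log2 fold change of L101P against WT was 1.36 (SE 0.35), with an adjusted p of 0.0493 by edgeR. HIST2H2BF was the only call among the 53 members in that comparison, against 3.94% of all genes. Of the 50-base words of its transcripts, 25.7% also occur in other genes.

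The HIST2H2BF call rests on a few libraries. Without the transduced WT library its log2 fold change was 0.85 (adjusted p = 0.351 by edgeR), and without the transduced L101P library 0.86 (adjusted p = 0.244). It also missed the threshold without either library labelled KO (0.0635 and 0.0657, as adjusted p), without either E690K library (0.0782 and 0.0783), with the KO labels exchanged (0.0759) and with library totals alone (0.0530). Over the alternatives run its adjusted p ranged from 0.00111 to 0.351. The log2 fold changes of HIST2H2BF in the other lines against WT were 0.92 (KO), 0.50 (E292V) and 0.87 (E690K), each with an SE of 0.35 and none past the threshold, and these comparisons share the WT libraries.

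HIST1H2AC was higher in the L101P line than in the mean of the E292V and E690K lines. This comparison sets the variant given as type 1 against those given as type 2 in the study's scheme of ABCA3 variants. HIST1H2AC was at 17.7 CPM in untreated and 19.8 in transduced L101P cells, at 14.4 and 14.6 in E292V, and at 15.4 and 14.4 in E690K, so the L101P libraries did not overlap the other 4. WT lay between at 14.8 and 17.6 CPM, and the libraries labelled KO were at 17.0 and 18.5 CPM. The log2 fold change was 0.37 (SE 0.10), with an adjusted p of 0.0467 by edgeR. It was the 1 call of 53, against 5.79% of all genes. The call was lost without 9 of the 10 libraries in turn, the untreated L101P library being the exception, at log2 fold changes of 0.31 to 0.43, with the KO labels exchanged (adjusted p = 0.0842) and with library totals alone (adjusted p = 0.0607). Over the alternatives run its adjusted p ranged up to 0.336.

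**Figure D5:**
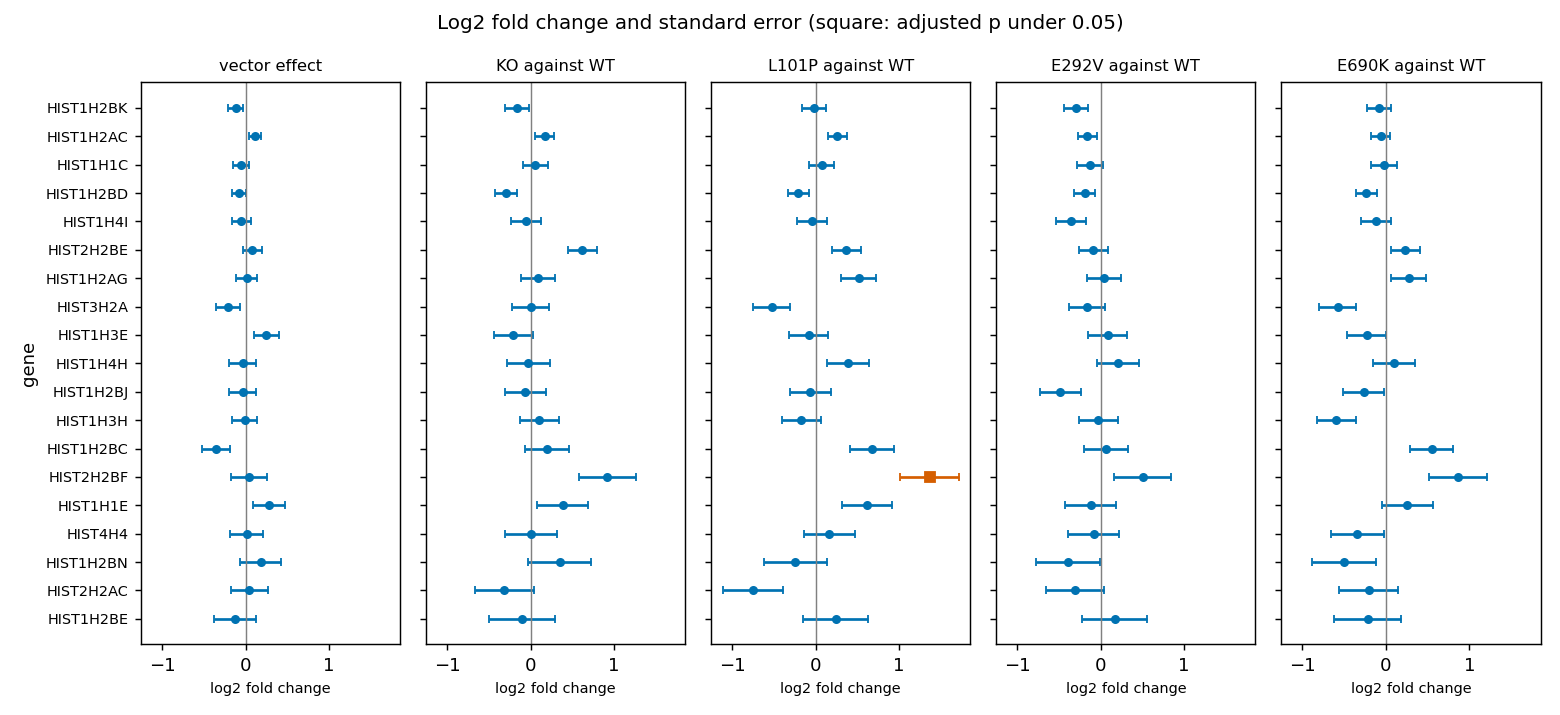
Log2 fold change with its standard error for the vector effect and each line against WT, for the 19 histone genes that average 1 CPM or more. The square marks an adjusted p under 0.05, reached in these panels by HIST2H2BF in L101P against WT alone.

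In the remaining line comparisons edgeR called no member. For KO against WT 0 of 53 members passed in edgeR and 0 in DESeq2, where these tools called 1.8% and 4.14% of all genes. At an unadjusted p of 0.05 edgeR gave 4 members, against 14.1% of all genes. For E292V against WT 0 passed in either tool, against 1.05% and 2.4% of all genes, and 0 at an unadjusted p of 0.05, against 10.3%. For E690K against WT 0 passed in either tool, against 5.38% and 8.14% of all genes, and 6 at an unadjusted p of 0.05, against 19.3%. In the test of any difference among the 5 lines 0 members passed in edgeR, against 13% of all genes, and 5 at an unadjusted p of 0.05, against 25.7%. DESeq2 called 4 members there (HIST2H2BF, HIST2H2BE, HIST1H2AC and HIST1H2BF), against 19% of all genes. Against WT, the members had a median log2 fold change of 0.01 (KO), 0.08 (L101P), -0.15 (E292V) and -0.09 (E690K), where the median of all genes lay between -0.02 and 0.00.

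HIST2H2BE came nearest to a call in the KO comparison. Its levels were 4.01 and 3.90 CPM in WT and 5.70 and 6.23 CPM in the libraries labelled KO, 4.51 and 5.42 CPM in L101P, 3.73 in both E292V libraries, and 4.59 and 4.40 CPM in E690K. Both libraries labelled KO were above the other 8. The log2 fold change against WT was 0.62 (SE 0.17, adjusted p = 0.102 by edgeR). With 1 library left out at a time it ran from 0.56 to 0.69. It stayed uncalled in 8 of these 10 fits, the exceptions being those without either L101P library. The other listed members with a polyadenylated form gave log2 fold changes against WT from -0.30 (HIST1H2BD in KO, SE 0.13) to 0.68 (HIST1H2BC in L101P, SE 0.26), none past the threshold.

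A pair of thinly counted members, chosen after their values were seen, came near a call by edgeR in the L101P comparisons. HIST1H2BF, an H2B gene, had 28 and 32 counts in WT, 33 and 64 in E292V, 12 and 18 in the libraries labelled KO, 6 in each E690K library, and 0 and 5 in L101P. Its log2 fold change in L101P against WT was -3.66 (SE 1.05, adjusted p = 0.0759 by edgeR), a fitted value that depends on how 0 counts are handled. HIST1H1D, which encodes linker histone H1.3, was at 0.808 and 1.20 CPM in L101P, 0.380 and 0.401 CPM in E292V, and 0.132 and 0.358 CPM in E690K. It was at 0.790 and 0.418 CPM in WT and at 0.454 and 0.443 CPM in the libraries labelled KO, so untreated WT lay near untreated L101P. The log2 fold change of L101P against the mean of E292V and E690K was 1.72 (SE 0.48, adjusted p = 0.0608 by edgeR and 0.0278 by DESeq2). With 1 library left out at a time it ran from 1.42 to 2.18 and stayed uncalled by edgeR in 8 of 10 fits. Against WT the log2 fold change of HIST1H1D in L101P was 0.73 (SE 0.58, adjusted p = 0.560 by edgeR).

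Genes that act on histone messages passed no test for the vector or for a line against WT. SLBP was at 73.6 to 85.0 CPM over the 10 libraries, and its log2 fold changes for the vector and for each line against WT lay between -0.04 and 0.04. NPAT was at 20.1 to 27.2 CPM, with log2 fold changes between -0.01 and 0.19. Of the 20 genes of histone transcription and processing 0 were called for the vector or for any line against WT. Of the 18 histone chaperones 0 were called in these comparisons either. In the test of any difference among the 5 lines, 1 of the 20 passed (MIF4GD, a partner of SLBP, adjusted p = 0.0469 by edgeR), as did 1 of the 18 chaperones. Among the 12 replication-independent histones, H2AFJ fell in KO, L101P and E690K against WT by 0.46, 0.67 and 0.62 on the log2 scale (SE 0.08 in each, adjusted p = 0.0122, 0.00134 and 0.000727 by edgeR), and H3F3B, an H3.3 gene, rose in E690K by 0.40 (SE 0.10, adjusted p = 0.0291). No other gene of that list passed against WT. Each of these line comparisons rests on the same WT libraries. Of all genes, they called 1.8% (KO), 3.94% (L101P) and 5.38% (E690K).

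The cell cycle lists stood beside the histone genes as follows. Of 43 S-phase genes 0 passed for the vector, and against WT 1 was higher in KO, 1 in L101P and 3 in E690K, while E292V had 1 lower. Over all 17978 genes tested, those higher than in WT numbered 145 (KO), 419 (L101P), 53 (E292V) and 548 (E690K), and 136 were lower in E292V. Of 54 G2 and mitosis genes 0 passed for the vector, and those higher than in WT numbered 1 (KO), 12 (L101P), 0 (E292V) and 20 (E690K), with 0 lower in these lines. In L101P and E690K the median log2 fold change of the G2 and mitosis genes was 0.25 and 0.28. That of the S-phase genes was 0.10 and 0.06, and that of the histone members 0.08 and -0.09. These comparisons share the WT libraries. The summed S-phase level lay between 3881 and 4223 CPM, and its transduced to untreated ratio was 0.971 (WT), 0.996 (the pair labelled KO), 0.922 (L101P), 0.981 (E292V) and 0.977 (E690K).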

How the data were processed

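RNA sequencing counts of 10 A549 libraries were analysed, 1 for each of 5 lines and 2 treatments. The authors deposited whole-number counts per gene, per the file headers. GRCh38, Subread, featureCounts, edgeR and limma are named in the submitters' processing notes, without versions. Annotation, strand setting and treatment of reads that fit several genes are not given in the sources used here. Of the member values from 1 to 10, 86.4% were even, as when both mates are counted, so Wilson 95% intervals used counts divided by 2. Reads carry no molecular identifiers.

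CPM are counts scaled by the library total. Counts were tested with edgeR 4.0.16 (R 4.3.3) on all genes passing filterByExpr, with TMM scaling and 1 additive fit of line and vector (4 residual degrees of freedom, common dispersion 0.0168). The SE is the absolute log2 fold change divided by the square root of F, and p-values were adjusted by Benjamini-Hochberg over 17978 genes. The pair of libraries from the same line is the block of the vector effect, since both come from the same cells. Alternatives were DESeq2 1.42.0, RLE size factors, library totals, no filter, exchanged KO labels, no replicate block, libraries left out and, chosen after the even values were seen, counts halved to read pairs. The code was tested on simulated data.

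Genes were named by rule: the most counted member of each class, called members, 6 listed members with a reported polyadenylated form, SLBP, NPAT, the members nearest the minimum of 10 counts, and ABCA3 and EGFP as a check of labels. Members and lists were chosen with earlier results of these data known. No source says that libraries came from separate cultures, so p-values measure the spread between these libraries, which may be technical. Coordinates, lengths and stem-loops are from GENCODE 29 on GRCh38, and promoters from RefSeq GRCh38.p14.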

Additional observations from a re-analysis of the deposited data

Results flagged for a closer look

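Within each treatment, the lowest or highest of the 5 libraries was compared with the rest, in 32 sets in all. The sets were the summed levels of all members, of each class and of the 6 listed polyadenylated members. Single genes were the class leaders, the 6 listed members and HIST2H2BF, which was already known as a call. In 3 of the 32 sets 1 library stood apart, its gap to the nearest other library taking more than 0.71 of the whole log2 range. Chance gives about 1 in 20 for a single set, and these sets overlap, so they are not independent. The summed H3 level of the transduced E690K library was 5.73 CPM, against 8.20 to 9.02 CPM in the other transduced libraries (0.79 of the log2 range). The summed H4 level of the transduced L101P library was 18.4 CPM, against 14.9 to 15.6 CPM (0.793 of the log2 range). HIST1H2BD was at 12.6 CPM in the untreated WT library, against 9.99 to 10.3 CPM in the other untreated libraries (0.859 of the log2 range).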

How the results depend on the processing

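No member was called for the vector under any of the 12 alternatives run, and for E292V against WT under any of those run there. The median summed level over the 10 libraries was 0.0111% of counts, 0.0112% with TMM scaling, 0.00470% without the listed members with a polyadenylated form and 0.00908% without HIST1H2BK. The vector fit with no replicate block called 0 members of 46 tested. With a library left out in turn, the calls ranged from 0 to 1 for KO against WT, 0 to 1 for L101P against WT, 0 to 1 for E690K against WT, 0 to 4 for L101P against the mean of E292V and E690K, and 0 to 3 for any difference among the lines. The 1 call in KO was HIST2H2BE, without either L101P library, and the 1 in E690K was HIST2H2BF, without untreated L101P. L101P against WT gave 0 calls with library totals alone or exchanged KO labels, and 2 with no filter (HIST2H2BF, HIST1H2BF). L101P against the mean of E292V and E690K gave 0 calls with library totals alone or exchanged KO labels, and 2 (HIST1H2AC, HIST1H1D) with DESeq2, with no filter and with halved counts. Any difference among the lines gave 4 calls with DESeq2, against 19% of all genes, 3 with no filter and 1 with halved counts. Of all genes, the main edgeR fit called 1.8% (KO), 3.94% (L101P) and 5.38% (E690K) against WT. It called 5.79% for L101P against the mean of E292V and E690K, and 13% for any difference. Shares of all genes under the other alternatives are not given here. The cause of the shifts in calls was not tested. Among 932 further values of named genes under alternatives, 47 changed sign, 0 of them called. Depth limits the family: 13 of the 60 members had under 100 counts in all.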
